A study of Homo sapiens with 2 samples.

Results

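Nuclear receptors other than the liver X receptors were examined in HCT116 cells, an established human colon carcinoma cell line, after treatment with LXR623. The group was given as a list of 43 gene symbols, from the retinoid X receptors to the NR0B receptors, and its members are the genes of this list that the platform annotation pairs with a probe set. Of the 43 genes, 38 had a probe set among the 23786 of the table. NR1H4, NR1I2, HNF4A, NR2F2 and NR0B1 matched none and were not analysed here, nor was NR1H2, which encodes LXRβ. The study compared HCT116 cells given LXR623, an LXR agonist, at 20 µM with cells given the solvent, DMSO, at 0.1%, each for 24 h in medium with 1.5% FBS after growth in 10% FBS. The sample labels name RPMI as the medium, and the methods of the paper give DMEM for this cell line. Total RNA was labelled with biotin and hybridized to Affymetrix arrays, with 1 array per condition. No test and no error can therefore be given, and the compound cannot be told apart from whatever else set the cultures apart. The labels name no genotype or clone, and a single cell line stands for colon carcinoma. No source used here says whether cultures were pooled.

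Nuclear receptors are transcription factors with, in most members, a DNA-binding domain and a pocket for a lipophilic ligand such as a steroid, a retinoid, a fatty acid or a bile acid. The liver X receptors bind oxysterols and act on DNA as heterodimers with a retinoid X receptor (RXR), which is also the partner of the retinoic acid receptors, the PPARs, the vitamin D receptor and the thyroid hormone receptors. Steroid receptors bind as homodimers after release from chaperones, and several orphan receptors bind as monomers. The comparison asks which of these receptors the colon carcinoma cells transcribe beside LXR, and which of them differed after the agonist.

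Each value is a log2 intensity from the authors' RMA summary, with a median of 4.40 for the DMSO array and 4.43 for the LXR623 array. The table carries no detection call. A receptor was counted as measured when the mean of both arrays reached the median of the whole table, 4.42, which 11899 probe sets did. Probe sets differ in how well they hybridize, so a value places a gene above or below this level and does not rank 1 receptor against another. Olfactory receptor genes, which are expressed mainly in the nose, served as a gauge of unexpressed genes. Of 372 such probe sets, 10 were measured, or 2.69%, and the 95th percentile of their means was 3.70. Among epithelial markers 7 of 11 were measured, with EPCAM, a surface protein of epithelia, at 10.15 with DMSO and 10.21 with LXR623, whereas LGALS4, CDH17, CDX1 and VIL1, genes of differentiated intestinal epithelium, were not. Of 7 fibroblast markers 1 was measured, COL1A1, of 6 leukocyte markers 1, CD68, and of 6 hepatocyte markers 1, SERPINA1. CD68 had 6.56 with DMSO and 7.12 with LXR623, and SERPINA1 4.60 and 5.76. Of the markers not measured, PTPRC of leukocytes and ALB of hepatocytes lay at 1.60 and 1.85 with DMSO and at 1.77 and 2.38 with LXR623.

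HCT116 cells gave a signal above these levels for a part of the family. Of the 38 receptors 21 were measured, or 55.3%, and the same number lay above the 95th percentile of the olfactory receptors. The level is the median of the table, and 11899 of all 23786 probe sets reached it. The share of receptors measured was thus near that of probe sets at large. The measured ones were RXRA and RXRB, RARA and RARG, all 3 PPARs, VDR, both thyroid hormone receptors, both REV-ERBs, HNF4G, 4 orphan receptors of the NR2 group, the glucocorticoid receptor gene NR3C1, NR4A1, NR4A2 and NR6A1. Their means ran from 4.73 to 9.43, and the means of the 17 others from 1.88 to 3.59. THRB had the lowest measured mean, with 4.63 with DMSO and 4.83 with LXR623. Its distance from the level was smaller than the differences between the arrays at its brightness, -0.78 to 0.87 for the central 95% of probe sets. The same held for HNF4G, with a mean of 4.82, and for PPARG, with a mean of 5.05 and a range of -0.77 to 0.94. Among the others, NR3C2 lay above the 95th percentile of the olfactory receptors in the DMSO array, at 3.85, but not in the LXR623 array, at 3.04.

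**Figure D1:**
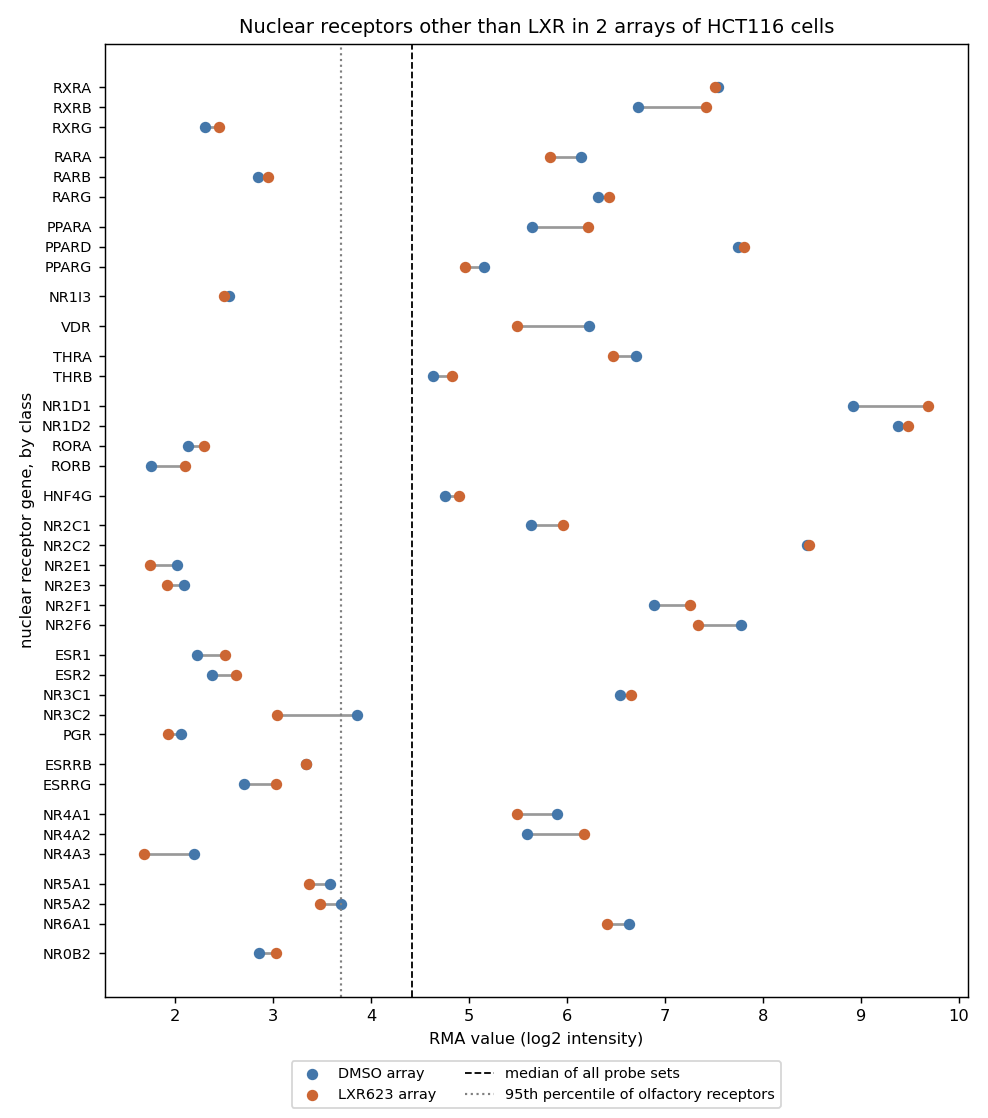
RMA values (log2 intensity, horizontal axis) of 38 nuclear receptor genes, grouped by class on the vertical axis, in the DMSO array (blue) and the LXR623 array (orange). The dashed line marks the median of the table, 4.42, and the dotted line the 95th percentile of olfactory receptors, 3.70. The 21 measured receptors lie to the right of both lines, and RXRB, NR1D1 and VDR show the widest gaps among them.

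Among the measured receptors 2 were at least 1.5-fold higher in the LXR623 array, RXRB and NR1D1, and 1 was at least 1.5-fold lower, VDR. These counts make 9.52% and 4.76% of 21, where 5.84% of all measured probe sets were higher and 5.41% lower by this size, so the number of receptors past 1.5-fold was near that of genes at large. The median log2 difference, LXR623 minus DMSO, was 0.10 over the 21 receptors and -0.02 over all measured probe sets, with 13 receptors above 0 and 8 below. The differences of 11 receptors were under 0.25 in size, as were those of 52.3% of all measured probe sets. To show how far probe sets of like brightness lay apart on these arrays, all probe sets were split into 20 bins by their mean value, and the range of the central 95% of differences was read in each bin. NR1D1 was the 1 measured receptor outside the range of its bin. Just under 1.5-fold, a log2 difference of 0.585, lay NR4A2 with 0.582 and PPARA with 0.570. Both exceeded 1.5-fold once the trend of the difference with brightness was removed, with 0.60 and 0.59, which gave 4 higher receptors. The share of all measured probe sets past 1.5-fold was not counted with the trend removed, so nothing is read from this count.

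**Figure D2:**
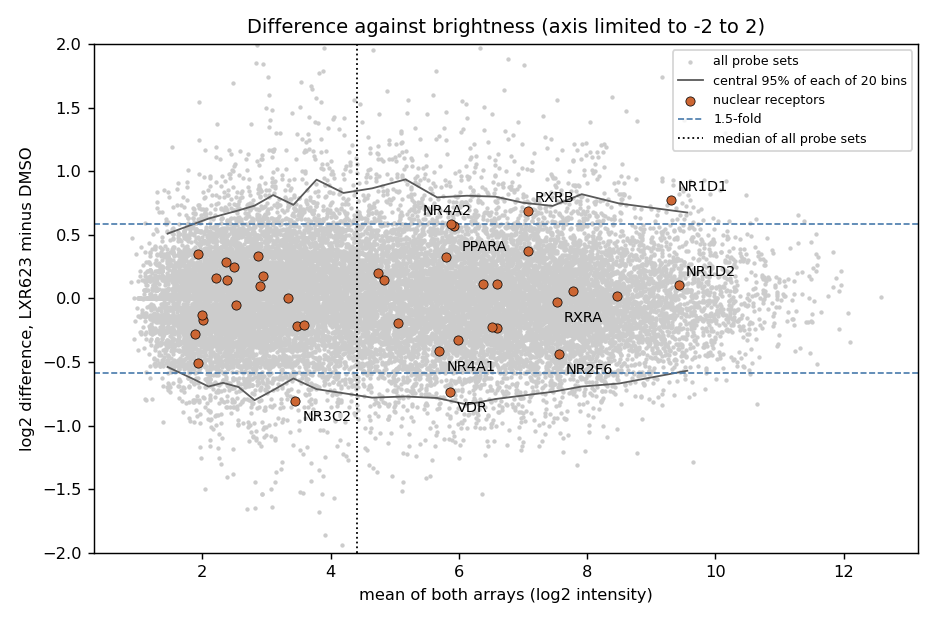
Log2 difference (LXR623 minus DMSO, vertical axis) against the mean of both arrays (log2 intensity, horizontal axis) for all probe sets (grey) and the 38 receptors (orange). Grey lines bound the central 95% of each of 20 brightness bins, dashed lines mark 1.5-fold, the dotted line marks the median of the table, and 7 probe sets beyond 2 in size lie outside the axis. Most receptors lie inside the band, and NR1D1 and NR3C2 lie outside it.

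The retinoid X receptors are the obligate partners of LXR. RXRA, the form present in most epithelia, had 7.54 with DMSO and 7.51 with LXR623, a log2 difference of -0.03. RXRB, a widely expressed form, had 6.73 and 7.41, which is 1.61-fold higher with LXR623 and a log2 difference of 0.69. RXRG, the form known from muscle and brain, was not measured, at 2.31 and 2.45. RXRA and RXRB thus reached the measured level on each array, and RXRB was past 1.5-fold while RXRA differed by -0.03. The difference of RXRB lay inside the central 95% of probe sets of its brightness, -0.76 to 0.75, and 3.84% of measured probe sets had a larger one. As a comparison, NR1H3, which encodes LXRα and is a target of LXR itself, had 5.32 and 5.89, a log2 difference of 0.58. That difference was under 1.5-fold and inside the central 95% of its bin, -0.78 to 0.79.

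The start regions of both RXR genes are shown because 1 of the partners was past 1.5-fold and the other was not. They are RefSeq windows of GRCh38.p14, from 250 bases before to 50 bases after the start, for RXRA at chr9:134326205-134326504 on the plus strand and for RXRB at chr6:33200616-33200915 on the minus strand, with the GC box GGGCGG, in either orientation, in capitals.
RXRA: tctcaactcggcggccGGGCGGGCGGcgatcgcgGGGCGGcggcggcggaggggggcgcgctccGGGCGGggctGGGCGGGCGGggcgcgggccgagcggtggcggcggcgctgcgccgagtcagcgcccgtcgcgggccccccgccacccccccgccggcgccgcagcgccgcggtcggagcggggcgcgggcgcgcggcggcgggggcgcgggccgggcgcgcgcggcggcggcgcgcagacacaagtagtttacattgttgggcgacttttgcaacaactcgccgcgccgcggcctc
RXRB: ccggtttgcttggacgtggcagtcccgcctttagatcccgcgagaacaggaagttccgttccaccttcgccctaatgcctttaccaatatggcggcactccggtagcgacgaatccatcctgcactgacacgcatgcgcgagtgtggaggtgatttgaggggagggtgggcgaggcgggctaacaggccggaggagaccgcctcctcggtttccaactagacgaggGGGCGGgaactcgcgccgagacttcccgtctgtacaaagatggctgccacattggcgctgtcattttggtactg
The RXRA window held 6 GC boxes, overlapping matches counted, and 84.0% G and C, and the RXRB window held 1 GC box and 60.0% G and C. The median of all 35116 RefSeq windows was 58.7%. Each gene has a further window in RefSeq, with 1 GC box for RXRA and 0 for RXRB. A GC box was found in 23 of the 37 windows of measured receptors and in 45.0% of all windows. The direct repeat of AGGTCA with a spacer of 4 bases, the textbook element of LXR and RXR, was in 0 of the 37 windows and in 0.0199% of all windows, and the single motif AGGTCA was in 4 of the 37 and in 13.8% of all. A match of letters is a description of the window and no evidence of binding.

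The retinoic acid receptors turn on genes in response to all-trans retinoic acid. RARA had 6.15 with DMSO and 5.82 with LXR623, a log2 difference of -0.32. RARG, the form of many epithelia, had 6.32 and 6.43, a log2 difference of 0.11. RARB, which is itself induced by retinoic acid and is often silent in carcinoma cells, was not measured, at 2.85 and 2.95. No retinoic acid receptor thus passed 1.5-fold, and the measured pair lay on opposite sides of 0. Of 7 measured genes of retinoid metabolism 1 was at least 1.5-fold higher and 0 lower. It was DHRS3, a retinal reductase that retinoic acid induces, with 8.04 and 9.01, a log2 difference of 0.97. TGM2, a transglutaminase gene induced by retinoic acid, had 7.34 and 8.23, a log2 difference of 0.90. CRABP2, which carries retinoic acid to the nucleus, had -0.37, and the rate-limiting catabolic gene CYP26A1 was not measured. The median over the 4 measured targets of the retinoic acid receptors was 0.39, and it was -0.04 over the 10 with a probe set, so that this median rests on few genes.

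The PPARs respond to fatty acids and their derivatives. PPARA, which drives fatty acid oxidation, had 5.64 with DMSO and 6.21 with LXR623, a 1.48-fold difference. PPARD, a form found in most tissues, had 7.75 and 7.81, a log2 difference of 0.06. PPARG, the receptor of adipocyte differentiation that is also present in colon epithelium, had 5.15 and 4.96, a log2 difference of -0.20. All 3 receptors were measured, and PPARA showed the widest gap. Of 11 measured textbook targets of PPARs, 2 were at least 1.5-fold higher and 0 lower. Of all measured probe sets 5.84% were higher and 5.41% lower by this size. ANGPTL4, a secreted inhibitor of lipoprotein lipase, had 4.56 and 5.51, a log2 difference of 0.95. ACSL1, which activates long-chain fatty acids, had 6.16 and 7.07, a log2 difference of 0.90. CPT1A, which admits fatty acids to mitochondria, had 0.46, and ACADVL, an enzyme of fatty acid oxidation, had 0.49. Of the 11 measured targets 9 were above 0 and 2 below, PLIN2 with -0.17 and ACADM with -0.07, where 52.0% of all measured probe sets were below 0. The median of this list was 0.33, and 0.14 over the 20 genes with a probe set. Whether the values of these targets are linked to PPARA was not tested.

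VDR, the receptor of active vitamin D, was the 1 measured receptor at least 1.5-fold lower, with 6.23 with DMSO and 5.49 with LXR623. The fold was 1.66 and the log2 difference -0.73, inside the central 95% of its bin, -0.78 to 0.79, and 2.61% of measured probe sets had a lower one. CYP24A1, which degrades vitamin D and is the best known target of VDR, had 9.16 and 9.18, a log2 difference of 0.01, and it was the 1 of 9 targets with a probe set that was measured. The transcript of the receptor was lower and that of its main target hardly differed, and whether they are linked was not tested. The thyroid hormone receptors THRA and THRB had 6.70 and 6.47, and 4.63 and 4.83, log2 differences of -0.23 and 0.20. KLF9, a transcription factor gene that thyroid hormone induces, had 4.22 and 5.20, a log2 difference of 0.98, and reached the measured level with LXR623 alone. NR1I3, the xenobiotic receptor CAR of the liver, was not measured, at 2.55 and 2.50. Among 5 measured targets of the xenobiotic receptors 1 was past 1.5-fold, ABCC3, a transporter of organic anions, with 6.31 and 8.79, a log2 difference of 2.48, while CYP3A4 was not measured. The median of these 5 genes was 0.37, and -0.14 over the 12 with a probe set. NR0B2, the corepressor SHP that bile acids induce in the liver, was not measured, at 2.86 and 3.03. Of 4 measured targets of the bile acid receptor 1 was above 0 and 3 below, with a median of -0.15. Of the lower ones FABP6 and SLC27A5 reached the measured level with DMSO alone, so nothing is read from this count or median. FGF19, an intestinal hormone induced by bile acids, had 6.95 and 7.62, a log2 difference of 0.67. It was the 1 measured target of this list past 1.5-fold. Over the 10 with a probe set the median was -0.03, with 2 higher and 1 lower by at least 1.5-fold. Of all probe sets 5.22% were higher and 4.76% lower by this size.

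**Figure D3:**
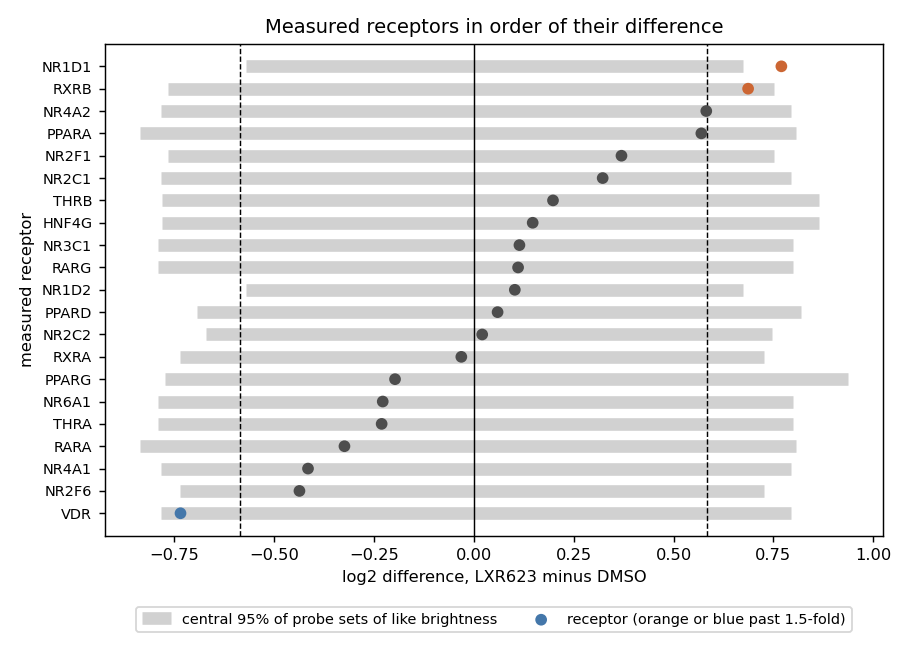
Log2 difference (LXR623 minus DMSO, horizontal axis) of the 21 measured receptors (points) in order of their difference. Grey bars give the central 95% of probe sets in the same brightness bin and dashed lines mark 1.5-fold. NR1D1, at 0.77, lies past its bar, and RXRB, at 0.69, and VDR, at -0.73, lie past 1.5-fold within theirs.

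The REV-ERBs are repressors that bind heme and belong to the negative limb of the circadian clock, where they silence BMAL1. NR1D1, which encodes REV-ERBα, had 8.92 with DMSO and 9.69 with LXR623, which is 1.71-fold higher with LXR623. Its log2 difference of 0.77 was the largest of the 21 receptors and lay above the central 95% of its bin, -0.57 to 0.67. Of all measured probe sets 2.74% had a larger one. NR1D2, which encodes REV-ERBβ, had 9.37 and 9.48, a log2 difference of 0.10. The paralogs thus stood apart in their difference, by 0.77 against 0.10. RORA and RORB, activators that compete with the REV-ERBs for the same element, were not measured, at 2.13 and 2.29 and at 1.75 and 2.10. NR1D1 overlaps THRA at its end in the RefSeq annotation, and THRA had a log2 difference of -0.23, opposite in sign. Among the 21 measured receptors 5 overlap another protein-coding gene, and whether their probe sets share signal with it was not tested.

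Of 14 measured genes of the circadian clock 2 were higher by at least 1.5-fold and 0 lower, and their median was -0.07. BHLHE40, a repressor of the clock that many stimuli induce, had 8.89 and 9.79, a log2 difference of 0.89. DBP, an output gene driven by CLOCK and BMAL1, had 7.81 and 8.46, a log2 difference of 0.65. NFIL3, a repressor of D-box genes that REV-ERBα silences, had 5.91 and 5.33, a log2 difference of -0.58. BMAL1, the main target of the REV-ERBs, had 5.94 and 5.86, a log2 difference of -0.07. Whether the values of these genes depend on NR1D1 was not tested. The time of day of the harvest is not given in the sources used here, and its part in these values was not tested.

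The start regions of the REV-ERB genes are shown because 1 of the pair was higher. The RefSeq windows of GRCh38.p14 are chr17:40100540-40100839 on the minus strand for NR1D1 and, the second of its windows, chr3:23945871-23946170 on the plus strand for NR1D2. The E-box CACGTG, bound by CLOCK and BMAL1, and the D-box TTATGNAA, bound by DBP, are in capitals, searched on both strands.
NR1D1: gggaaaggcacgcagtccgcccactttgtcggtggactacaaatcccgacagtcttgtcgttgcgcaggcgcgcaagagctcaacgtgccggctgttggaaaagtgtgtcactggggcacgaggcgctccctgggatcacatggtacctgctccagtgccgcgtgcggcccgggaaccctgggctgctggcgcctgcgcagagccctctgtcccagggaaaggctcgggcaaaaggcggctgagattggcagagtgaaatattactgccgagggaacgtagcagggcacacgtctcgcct
NR1D2: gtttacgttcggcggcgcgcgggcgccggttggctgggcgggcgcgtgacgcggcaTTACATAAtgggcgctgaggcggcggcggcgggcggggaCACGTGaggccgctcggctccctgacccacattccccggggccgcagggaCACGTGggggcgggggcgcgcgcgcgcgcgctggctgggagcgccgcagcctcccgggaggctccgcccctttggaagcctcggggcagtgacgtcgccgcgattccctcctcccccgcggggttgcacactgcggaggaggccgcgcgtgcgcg
The NR1D2 window held 2 E-boxes and 1 D-box, the other NR1D2 window, which is not shown, 0 of each, and the NR1D1 window 0 of each. Windows with an E-box made up 7.26% of all RefSeq windows and 3 of the 37 of measured receptors, those of NR1D2, NR2C1 and RARA, and windows with a D-box 3.30% and 2 of 37. A window without a match says only that these letters are not in it.

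The orphan receptors of the NR2 group have no known natural ligand in most cases. NR2F1, a COUP-TF that represses by competing for the sites of other receptors, had 6.89 with DMSO and 7.26 with LXR623, a log2 difference of 0.37. NR2F6, its relative EAR2, had 7.77 and 7.34, a log2 difference of -0.44. These relatives lay on opposite sides of 0, neither past 1.5-fold. NR2C1 and NR2C2, the testicular receptors TR2 and TR4, had 5.64 and 5.96, and 8.45 and 8.47, log2 differences of 0.32 and 0.02. NR2E1 and NR2E3, known from neural stem cells and the retina, were not measured, at values between 1.75 and 2.09. HNF4G, a factor of intestinal epithelium, had 4.75 and 4.90, a log2 difference of 0.15, and 1 of 10 targets of HNF4A with a probe set was measured, CLDN7, a tight junction gene, with 0.22.

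Among the steroid receptors NR3C1, which encodes the glucocorticoid receptor, was the 1 measured, with 6.54 with DMSO and 6.65 with LXR623, a log2 difference of 0.11. Of 9 measured glucocorticoid targets 7 were above 0, with a median of 0.40, and 0.19 over the 12 with a probe set. Past 1.5-fold were 3 higher and 1 lower, but KLF9 and TSC22D3, among the higher ones, reached the measured level with LXR623 alone, and nothing is read from this count. KLF9 had 4.22 and 5.20, as above, TSC22D3, which encodes the anti-inflammatory GILZ, 4.27 and 5.23, and MT2A, a metallothionein, 10.95 and 11.61, while FKBP5, a co-chaperone that holds the receptor in a state of low affinity, had 8.77 and 8.15. FKBP5 stood at -0.58 once the trend with brightness was removed, within 1.5-fold. NR3C2, the mineralocorticoid receptor, had 3.85 and 3.04, a log2 difference of -0.81 that lay below the central 95% of its bin, -0.63 to 0.74. Neither value reached the median of the table. Over all 38 receptors, with no filter, the counts were 2 higher and 2 lower, where 5.22% of all probe sets were higher and 4.76% lower by at least 1.5-fold. ESR1, ESR2 and PGR, the receptors of estrogens and progesterone, were not measured, at values between 1.93 and 2.62. Of 5 measured estrogen targets 0 were higher and 1 lower by at least 1.5-fold, CA12, a carbonic anhydrase, with -0.59, which reached the measured level with DMSO alone. ESRRB and ESRRG, the estrogen-related receptors, were not measured either, and ESRRB had the same value in both arrays, 3.34, as did 1355 probe sets, or 5.70% of the table. The cause of these ties was not tested.

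The NR4A receptors are immediate early genes, induced within hours by stress and growth signals. NR4A1, or NUR77, had 5.90 with DMSO and 5.49 with LXR623, a log2 difference of -0.41. NR4A2, or NURR1, had 5.59 and 6.17, a log2 difference of 0.58. NR4A3 was not measured, at 2.19 and 1.68. The measured members of this family stood on opposite sides of 0, and neither passed 1.5-fold. Of 11 measured immediate early genes 3 were past 1.5-fold, each higher, where 5.84% of all measured probe sets were higher by this size. They were FOS, JUN and FOSB, subunits of AP-1, with log2 differences of 0.88, 0.76 and 0.61. FOSB was near the measured level with DMSO, at 4.47. The median of the list was 0.23, with 10 genes above 0 and 1 below, DUSP1 with -0.40. NR6A1, the germ cell nuclear factor, had 6.64 and 6.41, a log2 difference of -0.23. NR5A1 and NR5A2, regulators of steroid synthesis and of embryonic and intestinal genes, were not measured, at values between 3.37 and 3.70. NR3C2 aside, the 16 receptors that were not measured had differences between -0.51 and 0.35, and 0 of them passed 1.5-fold.

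Proteins that work with the receptors were read from lists of cofactors and chaperones. Of 18 measured coactivators 0 were higher and 2 lower by at least 1.5-fold, and their median was -0.11. PPARGC1B, a coactivator of the PPARs and of mitochondrial genes, had 5.42 with DMSO and 4.58 with LXR623, a log2 difference of -0.84. KAT2B, the acetyltransferase PCAF, had 5.31 and 4.67, a log2 difference of -0.63. The remaining 16 coactivators were within 1.5-fold, among them NCOA1, NCOA2, CREBBP and EP300, with 0.15, 0.13, 0.03 and -0.20. Of 11 measured corepressors 1 was higher, BCL6, with 6.16 and 6.84, and 0 lower, and NRIP1, a ligand-dependent corepressor, had 0.43. CTBP2, another corepressor, had 4.84 and 3.70, a log2 difference of -1.15, the largest in size of this list, and its mean lay under the measured level, so that with no filter 1 corepressor was higher and 1 lower. Chaperones that fold the steroid receptors had a median of -0.36, with all 13 measured genes below 0, where 52.0% of all measured probe sets were below 0. FKBP4, a co-chaperone of steroid receptors, had 9.24 and 8.46, a log2 difference of -0.78, and FKBP5 was the other gene at least 1.5-fold lower. HSP90AA1, the inducible HSP90, had -0.01 and HSP90AB1, the constitutive one, -0.21. HSP90AA1 stood at 0.02 once the trend with brightness was removed, so that not all 13 were then below 0.

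**Figure D4:**
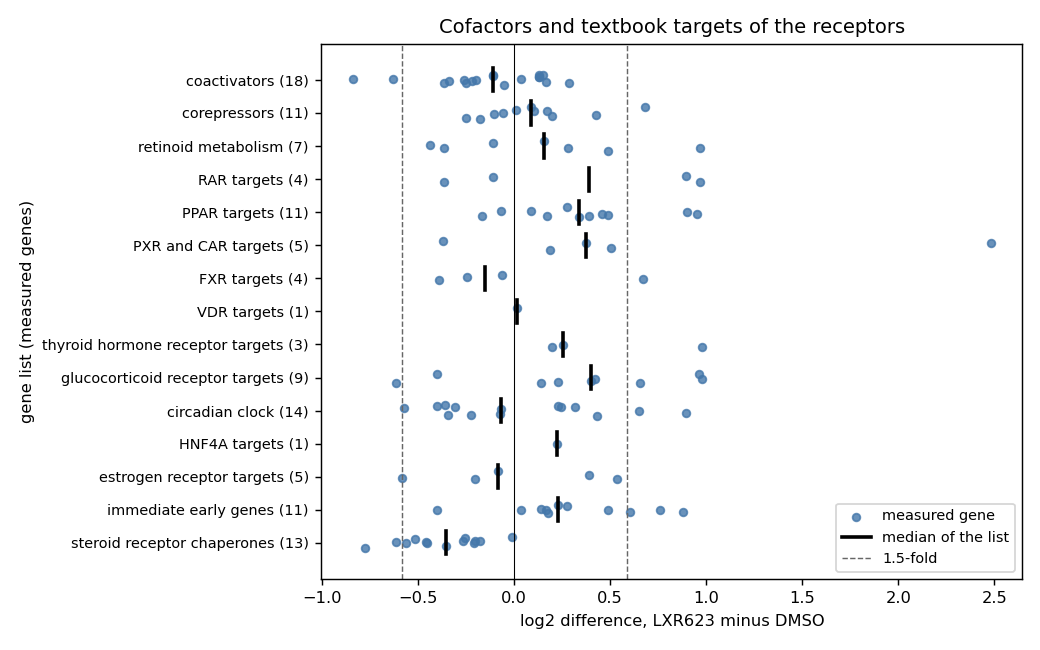
Log2 difference (LXR623 minus DMSO, horizontal axis) of each measured gene (points) in 15 lists of cofactors and textbook targets of the receptors, with the number of measured genes in brackets. Black bars mark the median of each list and dashed lines 1.5-fold. The steroid receptor chaperones, with a median of -0.36, all lie below 0, and ABCC3, at 2.48, lies farthest from 0.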

How the data were processed

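Total RNA of HCT116 cells was measured on 1 array per condition, grouped by the labels. The deposited values are log2 intensities, which the authors made by RMA, and the processing notes of the submitters name affy 1.36.1 and R 2.15.1. RMA fits both arrays to a common distribution, so a shift shared by all genes would not show. The array design and genome build are not given in the sources used here. Of 23786 probe sets, 22458 carry 1 symbol in the platform annotation, 0 several and 1328 none. The number of arrays limits the precision, and no test was run. Receptors and lists were chosen with earlier results of these data known. Each receptor with a probe set is reported. Of each list up to 4 of the measured genes with the largest differences in size are named, but not always all of them. Left out were MED14 with -0.36 and CARM1 with -0.34 among the coactivators, for example. Among the chaperones, BAG1 with -0.57 and HSPA8 with -0.52 were left out as well. Further genes were named after their values were seen. A gene was measured when its mean over both arrays reached the median of the table, which all 21 receptors did on each array. Of the list genes named, KLF9 and TSC22D3 did so with LXR623 alone, and CA12, FABP6 and SLC27A5 with DMSO alone. Counts used 1.5-fold. Alternatives were other levels, no filter, 2-fold, centring on the measured probe sets and removal of a lowess trend (fraction 0.3). Calculations used Python 3.11.15, numpy 2.4.6, pandas 2.3.3 and statsmodels 0.14.6, and figures matplotlib 3.10.9. The counting was checked on simulated arrays. Promoter windows are from RefSeq, GRCh38.p14, and 17 of the 21 measured receptors had at least 1.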

Additional observations from a re-analysis of the deposited data

How the results depend on the processing

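No paired analysis was possible because each condition has 1 array, and leaving out an array leaves no comparison. The 21 measured receptors were 21 by the higher array and by the level of the olfactory receptors as well, and 28 with a level at the 25th percentile of the table, 2.69. The count of lower receptors was 2 with that level and 2 with no filter, through NR3C2. The count of higher receptors was 4 with the lowess trend removed and 4 with differences centred on the measured probe sets, through PPARA and NR4A2, which the shifts of up to 0.04 and of 0.02 carried past 1.5-fold. The share of all measured probe sets past 1.5-fold was not counted under these settings. At 2-fold 0 receptors were higher and 0 lower. Under the trend removal and the centring, the differences of the 36 other receptors moved by less than 0.1 and stayed on their side of 1.5-fold. The median over the receptors ran from 0.08 to 0.12 across the alternatives, against 0.10. Among the related lists, the lower counts of the chaperones and of the glucocorticoid targets were 1 and 0 with the trend removed, through FKBP5, against 2 and 1, and 1 corepressor, CTBP2, was lower by the higher array or with no filter, against 0. The chaperone gene HSP90AA1 stood at 0.02 with the trend removed, against -0.01. Signals under the median are dim, and the low values of a receptor do not show that its transcript was absent.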
